A study of Mus musculus with 6 samples.

Results

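Translation initiation and elongation factors are the proteins that load messenger RNA and initiator tRNA onto the ribosome and then carry each codon through it. Their genes were taken by name, as every symbol beginning with Eif1 to Eif6, Eef1 or Eef2, without the eIF2alpha kinases and without the Y-linked copy Eif2s3y. This gave 59 of the 24411 symbols in the count tables. Expression was measured by bulk RNA sequencing of total RNA from mice at postnatal day 18, with 3 libraries from mice in which a large enhancer of Atoh7 was knocked out (enhancer KO) and 3 from wild-type mice (WT). The labels call the replicates independent but name no animal, litter, strain, sex or further allele, so p-values measure the spread between these samples, which may in part be technical. The labels name the cerebellum in one place and the retina in another, and the marker levels that follow are those of cerebellum. All 9 photoreceptor markers stayed below 1 CPM (the usual read count per scaled library size) in every library, while the markers of granule neurons and of Purkinje cells summed to 1575 CPM and 7539 CPM in enhancer KO and to 2683 CPM and 5896 CPM in WT.

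Initiation begins when eIF2 brings the initiator tRNA to the small ribosomal subunit together with eIF1, eIF1A, eIF3 and eIF5. The cap-binding complex eIF4F recruits the messenger RNA, the start codon is selected by scanning, and eIF5B joins the large subunit. During elongation eEF1A delivers aminoacyl-tRNA, the eEF1B proteins recharge it, and eEF2 moves the ribosome along. In neurons the pathway is best known as a point of control, through phosphorylation of eIF2alpha, through the eIF4E-binding proteins under mTORC1, and through the kinase of eEF2.

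Atoh7, the gene of a bHLH transcription factor needed for retinal ganglion cells, had 28, 33 and 29 reads in the enhancer KO libraries and 63, 42 and 72 reads in the WT libraries. On the CPM scale it was lower in enhancer KO (log2 fold change -1.41 ± 0.20 SE, edgeR adjusted p = 0.000352), in the direction the labels give. Gene reads numbered 36849747 to 40858310 in enhancer KO libraries and 22812075 to 33076111 in WT libraries. The share of all reads that lay outside annotated exons was 17.4% ± 0.735 in enhancer KO and 32.4% ± 1.56 in WT (SD, n = 3 each), and 9 of 9 long noncoding RNAs known to stay in the nucleus were lower in enhancer KO. WT replicate 1 stood apart by 1054 CPM of Xist and no reads of the Y-linked Ddx3y, Eif2s3y and Kdm5d, the pattern of a female sample. Every other library had reads of these Y-linked genes and 0.743 to 1.37 CPM of Xist, the pattern of a male sample. By these reads sex was not balanced between the groups. WT replicate 2 stood apart by 20.4% unmapped reads and by 12.9% of its gene reads on the ribosomal RNA gene Rn45s.

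Of the 59 genes, 56 had enough reads to be tested, and most of those that changed were higher in enhancer KO by small amounts. By edgeR's quasi-likelihood test at an adjusted p under 0.05, 20 were higher and 6 were lower, against 13.4% of all 15846 genes tested called higher and 17.9% called lower (31.3% called in all). The median log2 fold change was 0.084 over the 56 tested factors and 0.00068 over all genes tested. Among the 20 higher genes the median change was 16.1%, and among the 6 lower genes it was -13.7%, where the medians over all genes called were 17.1% and -23.2%. The enhancer KO libraries all lay above the WT libraries for 26 of the 56 genes and below them for 9, where 20.5% and 24.3% of all genes tested did so (44.8% in all). The factors drew many reads, with a median of 58.6 CPM against 21.2 CPM for all genes tested, and 53 of the 56 averaged at least 10 CPM. Among the 10310 genes at that level, 18.9% were called higher and 20.5% lower. With library size as the only scaling, which moved the median of all genes to 0.063, 20 factors were higher and 2 lower, against 13.7% and 10.7% of all genes. Without enhancer KO replicate 2, 13 factors were called higher, with 8.89% of all genes, and without enhancer KO replicate 1, 3 were called lower, with 13.7% of all genes. Without WT replicate 1 the counts were 18 higher and 6 lower (13.8% and 16.9% of all genes). Without WT replicate 2 they were 18 and 4 (11.2% and 14.8% of all genes).

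**Figure D1:**
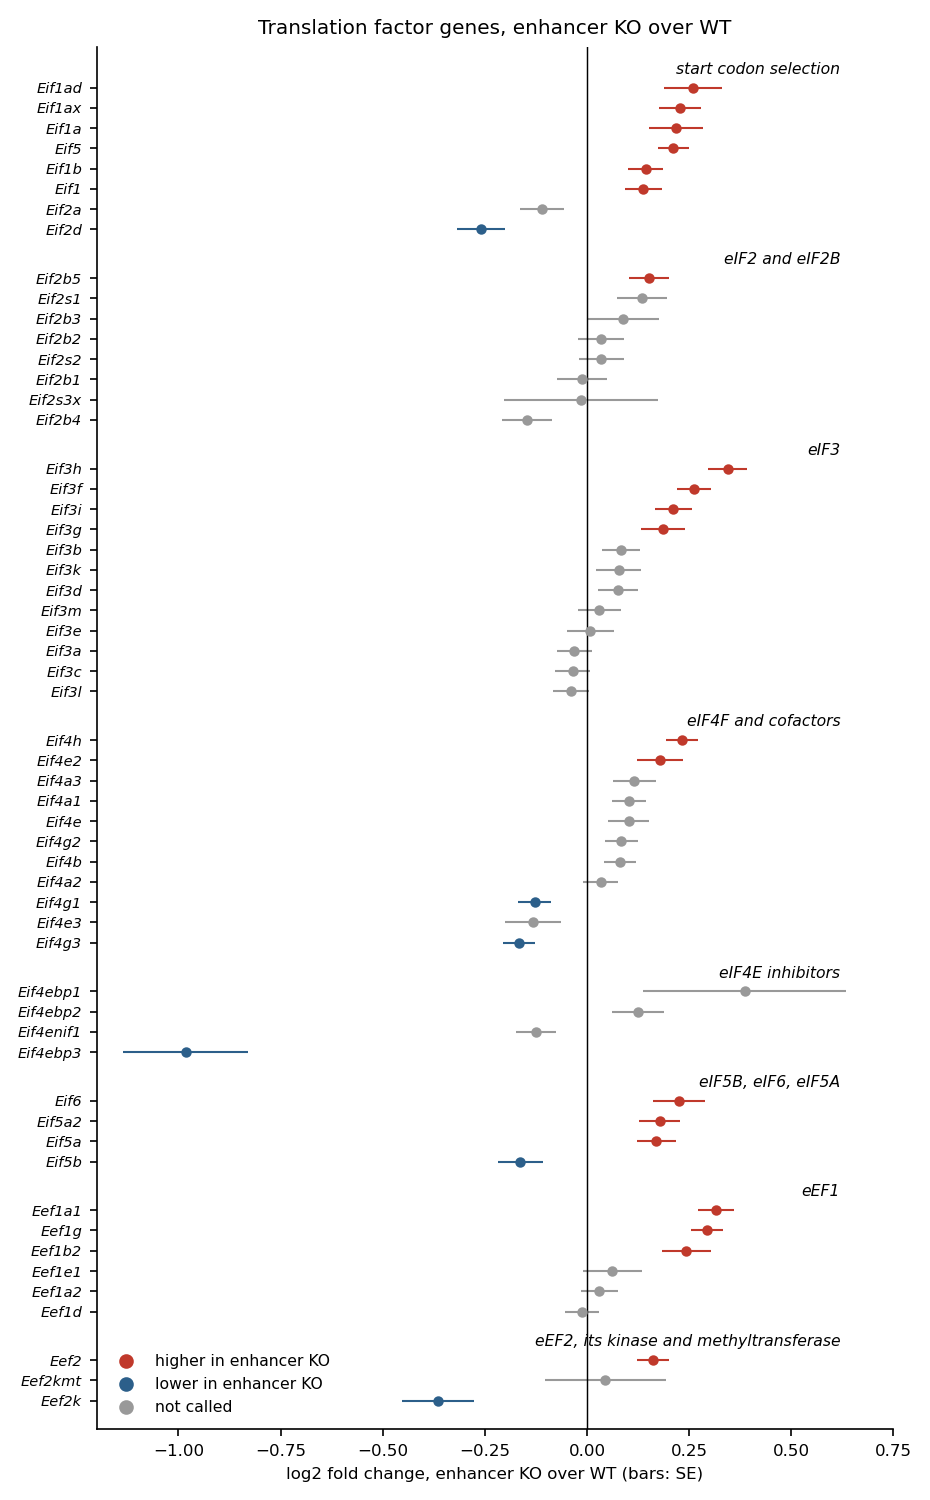
Log2 fold change of the 56 tested translation factor genes, enhancer KO over WT, on the horizontal axis, with bars for the standard error and genes grouped by role down the page. Red marks the 20 genes called higher in enhancer KO, blue the 6 called lower and grey those not called, and Eif4ebp3 lies far to the left of the rest at -0.98.

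Together the 59 genes took 0.945%, 0.953% and 0.945% of gene reads in the enhancer KO libraries and 0.858%, 0.767% and 0.877% in the WT libraries. The groups did not overlap, and the difference of 0.114 percentage points had an exact two-sided permutation p of 0.1, the smallest that 3 libraries against 3 can give. With Rn45s left out of the gene reads the shares averaged 0.963% ± 0.0041 in enhancer KO and 0.890% ± 0.012 in WT (SD, n = 3 each). These are shares of RNA in a tissue, in which fewer cells of a type and less RNA per cell cannot be told apart. Over the same libraries the summed granule neuron markers, all 9 of them lower in enhancer KO, ranged from 1444 to 1795 CPM in enhancer KO and from 2391 to 2881 CPM in WT. The summed Purkinje markers, of which 6 of 8 were higher, ranged from 7349 to 7685 CPM in enhancer KO and from 5327 to 6294 CPM in WT. The astroglial markers, of which 2 of 6 were higher, summed to 7226 to 7659 CPM in enhancer KO and 6222 to 6272 CPM in WT. The microglial markers, of which 4 of 6 were higher, summed to 210 to 248 CPM in enhancer KO and 186 to 199 CPM in WT. The oligodendrocyte markers, 1 of 6 higher and 1 lower, overlapped at 31888 to 35090 CPM in enhancer KO and 28968 to 32250 CPM in WT. The choroid plexus markers, none called, also overlapped, at 794 to 2001 CPM in enhancer KO and 1171 to 1837 CPM in WT. The endothelial markers, of which 5 of 6 were lower, summed to 106 to 121 CPM in enhancer KO and 142 to 156 CPM in WT. The nuclear long noncoding RNAs summed to 6003 to 7396 CPM in enhancer KO and to 15624 to 17054 CPM in WT. The part of these shifts in the results on translation factors was not tested.

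A group of 8 factors held those for eIF1, eIF1A and eIF5, which act in selecting the start codon. Eif1ad, Eif2d and Eif2a were placed with them, and their part in that step was not tested. Of the 8, 6 were higher, 1 was lower and 1 did not pass. Of all genes tested, 13.4% were called higher and 17.9% lower. Eif5, the GTPase-activating protein of eIF2 (chr12:111538016-111546752, plus strand, GRCm38), had 238, 248 and 243 CPM in enhancer KO and 214, 209 and 206 CPM in WT. The groups did not overlap, and Eif5 was higher by 0.21 ± 0.038 on the log2 scale (adjusted p = 0.0014). Eif1ax encodes the eIF1A of the X chromosome and had 58.8, 62.9 and 66.5 CPM in enhancer KO and 54.3, 53.7 and 52.7 CPM in WT. Its levels did not overlap either (0.23 ± 0.052, adjusted p = 0.00594), and its autosomal copy Eif1a moved the same way (0.22 ± 0.066, adjusted p = 0.0259). Eif1ad, whose product carries an eIF1A-like domain, averaged 22.3 CPM in enhancer KO and 18.7 CPM in WT (0.26 ± 0.071, adjusted p = 0.0151). Eif1 keeps the ribosome open while it scans and had the highest level of the group per kilobase of transcript, 153 CPM in enhancer KO and 139 CPM in WT. Its libraries had 203, 203 and 201 CPM in enhancer KO and 172.5, 193 and 187 CPM in WT. Its change was 0.14 ± 0.045 (adjusted p = 0.0343), and its close copy Eif1b changed by a like amount (0.14 ± 0.043, adjusted p = 0.0226). Eif1b made up 29.5% ± 0.505 of the pair per kilobase in enhancer KO and 29.4% ± 1.14 in WT (SD, n = 3 each, exact two-sided permutation p = 0.9).

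Eif2d was the exception among these genes. Its product can deliver initiator tRNA without GTP and also takes part in ribosome recycling. It had 22.8, 23.7 and 24.0 CPM in enhancer KO and 27.2, 28.1 and 29.0 CPM in WT, with no overlap, and was lower by edgeR's test (-0.26 ± 0.058, adjusted p = 0.00529), but was not called with library size as the only scaling (-0.20, adjusted p = 0.107). Eif2a, another factor that can bring tRNA to the ribosome and not a subunit of eIF2, was at 35.3 ± 0.484 CPM in enhancer KO and 38.1 ± 1.94 CPM in WT (SD, n = 3 each) and did not pass (adjusted p = 0.149). Several of these calls were lost when 1 library was left out. For Eif1ad and Eif1 most of the log2 fold changes stayed close, at 0.25 for Eif1ad without enhancer KO replicate 2 and at 0.14 to 0.15 for Eif1 without each enhancer KO library in turn or without WT replicate 3, but at 0.093 for Eif1 without WT replicate 1. Without enhancer KO replicate 2 the adjusted p was 0.0573 for Eif1ad, 0.111 for Eif1b and 0.0942 for Eif1. Without WT replicate 3 it was 0.0612 for Eif1b, 0.0965 for Eif1a and 0.0617 for Eif1, and without enhancer KO replicate 3 it was 0.0947 for Eif1a and 0.0509 for Eif1. Eif1 also lost its call without enhancer KO replicate 1 (adjusted p = 0.0746) and without WT replicate 1 (0.0742), and Eif1a without WT replicate 2 (0.0657).

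The eIF2 complex and its exchange factor eIF2B, the target of the integrated stress response, had 1 of 8 genes higher and none lower. Of all genes tested, 13.4% were called higher and 17.9% lower. The median log2 fold change of the 8 genes was 0.035. The higher gene was Eif2b5, the catalytic subunit of eIF2B (chr16:20498817-20509323, plus strand). It had 43.0, 44.6 and 45.9 CPM in enhancer KO and 39.4, 40.8 and 39.97 CPM in WT, without overlap (0.15 ± 0.049, adjusted p = 0.0333). That call was lost without any one of enhancer KO replicates 2 and 3 and WT replicates 1 and 3, where the adjusted p ran from 0.0759 to 0.0996. Eif2s2 encodes the beta subunit of eIF2 and had the highest level of the group per kilobase (24.4 CPM in enhancer KO and 23.8 CPM in WT), with 62.0 ± 1.28 CPM in enhancer KO and 60.6 ± 4.56 CPM in WT in all (SD, n = 3 each). Its fold change was 0.035 ± 0.055 and did not pass (adjusted p = 0.671).

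The gamma subunit of eIF2, which holds GTP and the tRNA, has an X-linked gene, Eif2s3x, and in mice a Y-linked copy, Eif2s3y. Eif2s3x (chrX:94188707-94212862, minus strand) had 55.7, 55.8 and 52.9 CPM in enhancer KO and 70.9, 50.6 and 44.1 CPM in WT. WT replicate 1, the library with high Xist, was the highest of the 6, and the groups overlapped (-0.014 ± 0.19, adjusted p = 0.966). Eif2s3y had 25.3, 23.1 and 26.5 CPM in enhancer KO and 0, 46.3 and 43.0 CPM in WT, where the 0 belongs to WT replicate 1 and allows up to 3 reads, or 0.0925 CPM. Without WT replicate 1, Eif2s3x was higher in enhancer KO (0.22 ± 0.063, adjusted p = 0.0198) and Eif2s3y was lower (-0.84 ± 0.069, adjusted p = 2.7e-06). In the same comparison the Y-linked Kdm5d (-0.67, adjusted p = 7.9e-06) and Uty (-0.44, adjusted p = 0.000206) were lower and Ddx3y was higher (0.15, adjusted p = 0.0263). The sum of both gamma-subunit genes was 81.0, 78.9 and 79.3 CPM in enhancer KO and 70.9, 96.9 and 87.1 CPM in WT. The other X-linked factor, Eif1ax, was higher with WT replicate 1 and without it (0.24 ± 0.059, adjusted p = 0.00795 without).

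**Figure D2:**
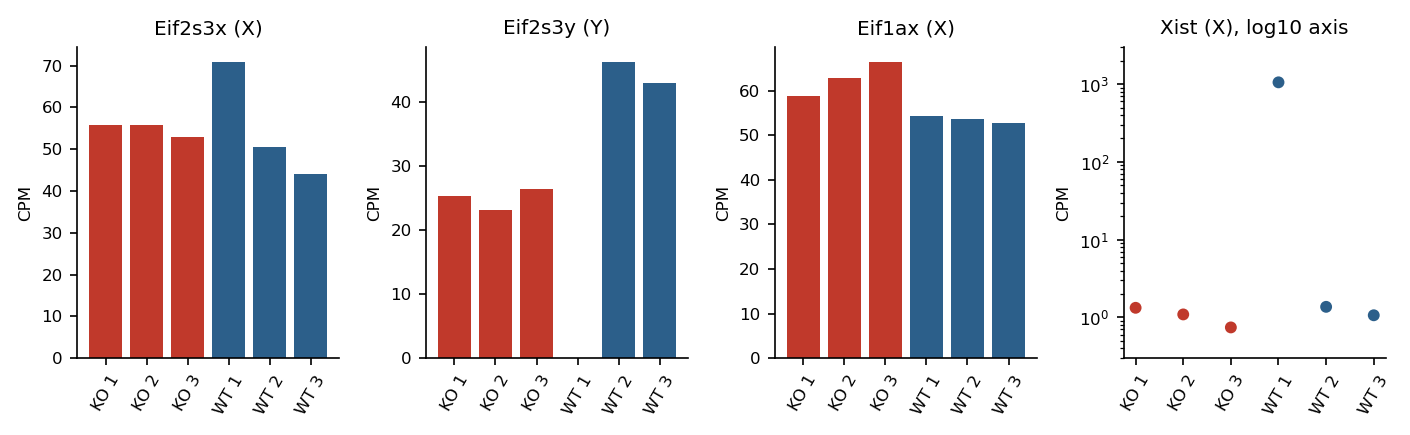
Levels in CPM of Eif2s3x, its Y-linked copy Eif2s3y, Eif1ax and the X-inactivation RNA Xist (log10 axis) in each enhancer KO (red) and WT (blue) library. WT replicate 1 alone lacks Eif2s3y and has 1054 CPM of Xist, and in the other WT libraries Eif2s3y is at 46.3 and 43.0 CPM, above the 23.1 to 26.5 CPM of enhancer KO.

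The scaffold eIF3 has many subunits, and its genes did not move as one. Of 12 tested, 4 were higher and none was lower, against 13.4% and 17.9% of all genes tested. Eif3h (chr15:51786558-51865523, minus strand) had 101, 105 and 110 CPM in enhancer KO and 80.1, 82.4 and 86.7 CPM in WT. This was the largest rise called among all the factors (0.34 ± 0.047, adjusted p = 0.000221). Eif3f, which like Eif3h carries an MPN domain, had 105, 107 and 103 CPM in enhancer KO and 86.3, 85.9 and 90.5 CPM in WT (0.26 ± 0.042, adjusted p = 0.000642). Eif3i and Eif3g encode subunits that bind with eIF3b. Eif3i averaged 65.0 ± 1.31 CPM in enhancer KO and 56.1 ± 1.66 CPM in WT (0.21 ± 0.045, adjusted p = 0.0037). Eif3g averaged 41.0 ± 1.70 CPM in enhancer KO and 36.1 ± 1.13 CPM in WT (SD, n = 3 each), a change of 0.19 ± 0.054 (adjusted p = 0.0204). None of the 4 overlapped between groups, but Eif3g lost its call without enhancer KO replicate 2 (adjusted p = 0.0811), enhancer KO replicate 3 (0.0568) or WT replicate 1 (0.0507).

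The genes of the large subunits eIF3a and eIF3c did not pass. Eif3c had 150, 147 and 145 CPM in enhancer KO and 145, 159 and 149 CPM in WT (-0.035 ± 0.044, adjusted p = 0.584). Eif3a had a fold change of -0.031 ± 0.043 (adjusted p = 0.635). Eif3e showed 0.0078 ± 0.058 (adjusted p = 0.935), with 70.6, 72.5 and 77.6 CPM in enhancer KO inside the 68.8 to 79.4 CPM of WT. The log2 fold changes of the 8 genes not called ranged from -0.039 for Eif3l to 0.084 for Eif3b. Eif3j1 and Eif3j2, a pair of nearly identical genes, could not be measured: they had 1 read in all, in WT replicate 2, in tables that count only reads aligned to 1 place.

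In the cap-binding complex eIF4F and its cofactors, 2 of 11 genes tested were higher and 2 were lower. These counts are near the shares among all genes of at least 10 CPM, of which 18.9% were called higher and 20.5% lower. The lower pair were the scaffolds that tie the cap to the ribosome. Eif4g3 (chr4:137993022-138208508, plus strand) had 248, 250 and 240 CPM in enhancer KO and 275, 280 and 273 CPM in WT, with no overlap (-0.17 ± 0.039, adjusted p = 0.00667). Eif4g1 (chr16:20668313-20692884, plus strand) had 363, 365 and 350 CPM in enhancer KO and 395, 389 and 395 CPM in WT, again apart (-0.13 ± 0.041, adjusted p = 0.0333). The Eif4g1 call was lost in 12 of 17 alternatives. Its adjusted p was above 0.05 when either WT replicate 2 (0.0590) or WT replicate 3 (0.0867), or any enhancer KO library (0.0776 to 0.123), was left out. With library size as the only scaling it was 0.603 for Eif4g1 and 0.353 for Eif4g3, and the log2 fold changes were -0.064 and -0.10. Eif4g3 made up 38.6% ± 0.083 of the pair per kilobase in enhancer KO and 39.2% ± 0.488 in WT (SD, n = 3 each, exact two-sided permutation p = 0.1). The third scaffold-like gene, Eif4g2, which lacks the cap-binding site and serves cap-independent starts, averaged 984 ± 10.5 CPM in enhancer KO and 928 ± 28.5 CPM in WT, and did not pass (0.084 ± 0.041, adjusted p = 0.139).

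The 2 higher genes of this group were Eif4h, a cofactor of the helicase eIF4A, and Eif4e2, a cap-binding protein tied mainly to repression. Eif4h (chr5:134619721-134639490, minus strand) had 316, 317 and 325 CPM in enhancer KO and 275, 266 and 275 CPM in WT (0.23 ± 0.040, adjusted p = 0.00101). Eif4h lies in the region deleted in Williams syndrome in humans. Eif4e2 had 43.7, 46.6 and 48.0 CPM in enhancer KO and 42.7, 38.2 and 41.0 CPM in WT (0.18 ± 0.057, adjusted p = 0.0321), and lost its call without enhancer KO replicate 2 (0.0934), enhancer KO replicate 3 (0.0926), WT replicate 2 (0.0986) or WT replicate 3 (0.0728). The helicases did not pass: Eif4a1 showed 0.10 ± 0.041 (adjusted p = 0.0754) and Eif4a2, the form prominent in brain, 0.034 ± 0.043 (adjusted p = 0.595). Eif4a2 made up 58.5% ± 0.693 of the pair per kilobase in enhancer KO and 59.6% ± 0.639 in WT (SD, n = 3 each, exact two-sided permutation p = 0.2). The cap-binding protein itself, Eif4e, had a fold change of 0.10 ± 0.050 (adjusted p = 0.147). Eif4b, which also stimulates the helicase, had 232, 233 and 244 CPM in enhancer KO and 225, 218 and 228 CPM in WT, and did not pass (0.080 ± 0.039, adjusted p = 0.147). The germ-cell form Eif4e1b had 0 reads in every library, so it was at or below 3 reads per library (0.0719 to 0.146 CPM).

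Among the genes of the 4 proteins that hold back eIF4E, 1 was called, where 31.3% of all genes tested were. Eif4ebp3, one of the eIF4E-binding proteins, had 106, 83 and 94 reads in the enhancer KO libraries and 152, 107 and 150 reads in the WT libraries. That made 2.82, 2.16 and 2.25 CPM in enhancer KO and 4.69, 5.22 and 4.44 CPM in WT, so the lowest WT library lay well above the highest enhancer KO library. Its log2 fold change of -0.98 ± 0.15 (adjusted p = 0.000572) was the largest of the family, and Eif4ebp3 was the 1 gene of the 56 that passed a test against a minimum fold of 1.2. Eif4ebp2, the main form in neurons, was at 40.3 ± 1.31 CPM in enhancer KO and 36.8 ± 3.06 CPM in WT and did not pass (0.13 ± 0.063, adjusted p = 0.159). Eif4ebp1 was near 1 CPM in both groups (1.51 ± 0.319 CPM in enhancer KO and 1.15 ± 0.270 CPM in WT, adjusted p = 0.27). Eif4enif1, which carries eIF4E into the nucleus, had the highest level of the 4 per kilobase (11.4 CPM in enhancer KO and 12.4 CPM in WT) and did not pass (-0.12 ± 0.049, adjusted p = 0.0736).

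**Figure D3:**
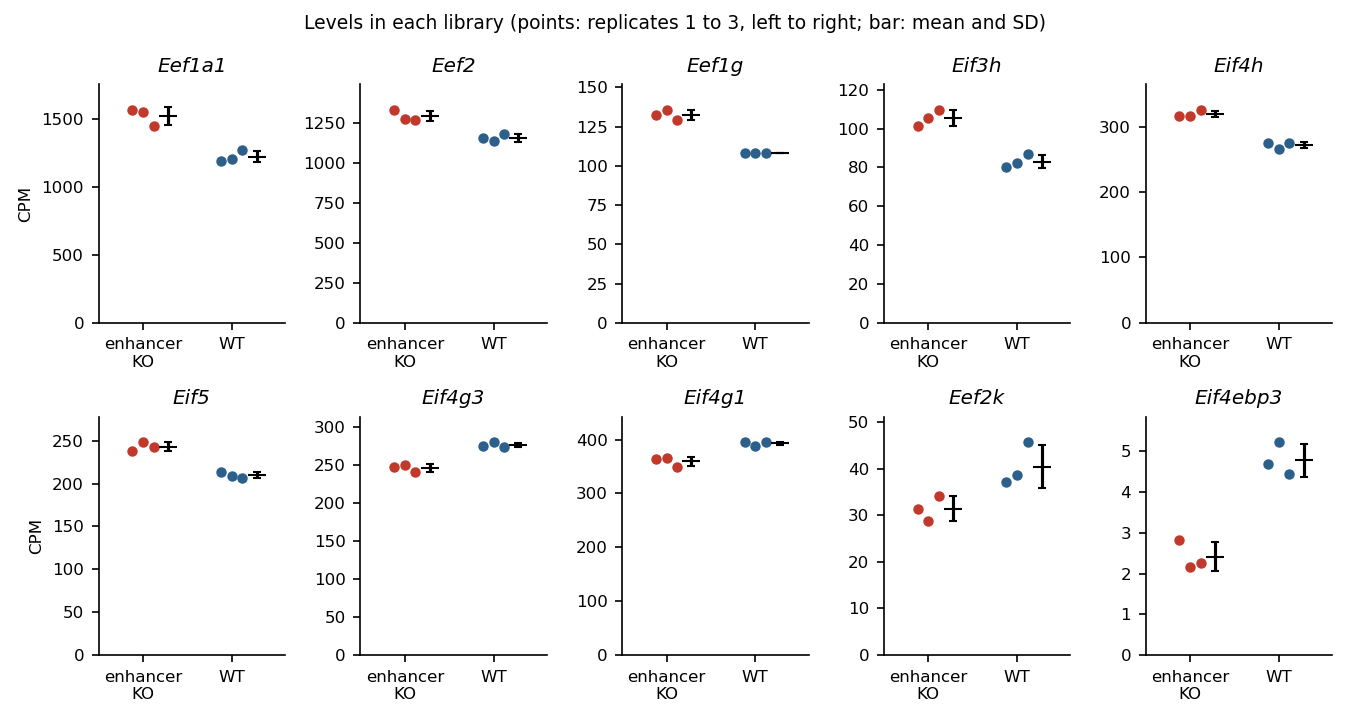
Levels in CPM of 10 translation factor genes in each of the 3 enhancer KO (red) and 3 WT (blue) libraries, with black bars for the mean and SD; every axis starts at 0. The groups do not overlap in any panel. Outside the panel of Eif4ebp3 the change is at most 26.9% (Eif3h), while Eif4ebp3 averages 2.41 CPM in enhancer KO and 4.78 CPM in WT.

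Of the late-acting factors, eIF5A, its second form and eIF6 were higher and eIF5B was lower. Across all genes tested 13.4% were called higher and 17.9% lower. Eif5a encodes the hypusine-bearing factor that helps ribosomes through stretches such as polyproline. It had 258, 265 and 284 CPM in enhancer KO and 228, 246 and 243 CPM in WT (0.17 ± 0.048, adjusted p = 0.0178). Its copy Eif5a2 averaged 126 ± 3.55 CPM in enhancer KO and 111 ± 6.66 CPM in WT (0.18 ± 0.049, adjusted p = 0.0163). Eif6, which keeps the large subunit from joining too early, averaged 35.3 ± 0.732 CPM in enhancer KO and 30.1 ± 2.38 CPM in WT (SD, n = 3 each; 0.23 ± 0.063, adjusted p = 0.0176). Eif5b, the GTPase that joins the subunits, had 53.0, 51.4 and 54.0 CPM in enhancer KO and 56.0, 63.8 and 57.8 CPM in WT (-0.16 ± 0.054, adjusted p = 0.0384). Some calls were lost when 1 library was left out. Eif5b lost its call without enhancer KO replicate 1 (adjusted p = 0.117), enhancer KO replicate 2 (0.139), WT replicate 2 (0.199, with a log2 fold change of -0.10) or WT replicate 3 (0.0679, with a log2 fold change of -0.18). With library size as the only scaling its log2 fold change was -0.0975 (adjusted p = 0.379). Eif5a lost it without enhancer KO replicate 3 (0.0667), Eif5a2 without WT replicate 3 (0.0750), and Eif6 without enhancer KO replicate 2 (0.0533, its log2 fold change still 0.23) or WT replicate 2 (0.0505).

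Among the eEF1 genes, 3 of 6 were higher and none was lower, against 13.4% and 17.9% of all genes tested. Eef1a1 (chr9:78478449-78489151, minus strand), the general form of eEF1A, had 1563, 1546 and 1445 CPM in enhancer KO and 1185, 1207 and 1266 CPM in WT. The groups were far apart for so abundant a gene (0.32 ± 0.045, adjusted p = 0.000289), a change of 24.5%. Eef1g, the structural subunit of the exchange complex (chr19:8967041-8978479, plus strand), had 133, 136 and 129 CPM in enhancer KO. In WT it had 107.9, 108.3 and 108.2 CPM (0.29 ± 0.039, adjusted p = 0.000197), the smallest adjusted p of the 56 genes. Eef1b2, which exchanges the nucleotide, had 59.1, 69.3 and 67.6 CPM in enhancer KO and 55.5, 54.6 and 55.5 CPM in WT (0.24 ± 0.059, adjusted p = 0.00819). Eef1d, the other exchange subunit, lay at 58.8 ± 0.970 CPM in enhancer KO and 59.3 ± 0.401 CPM in WT (SD, n = 3 each; -0.012 ± 0.042, adjusted p = 0.863). Eef1e1, which belongs to the tRNA synthetase complex, had a fold change of 0.062 ± 0.073 (adjusted p = 0.558).

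Eef1a2 replaces Eef1a1 in mature neurons and muscle. It had 621, 612 and 645 CPM in enhancer KO and 637, 599 and 603 CPM in WT, overlapping, and did not pass (0.031 ± 0.044, adjusted p = 0.645). Per kilobase of transcript the level of Eef1a1 was 846 CPM in enhancer KO and 680 CPM in WT, and that of Eef1a2 was 300 CPM in enhancer KO and 294 CPM in WT. With Eef2, at 419 CPM in enhancer KO and 375 CPM in WT, these were the highest levels per kilobase of the family, leaving aside Eif4g2, for which no reliable transcript length was at hand. Within the pair, Eef1a2 made up 25.5%, 25.4% and 27.8% in enhancer KO and 31.6%, 29.9% and 29.1% in WT. This share does not depend on how the libraries are scaled. The enhancer KO values all lay under the WT values, the difference was -3.99 percentage points, and the exact two-sided permutation p was 0.1 (0.2 adjusted over the 4 pairs compared), the smallest that this design allows before adjustment. Eef1a1 has many processed pseudogenes, and reads that align equally well to several of them are not in these counts.

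**Figure D4:**
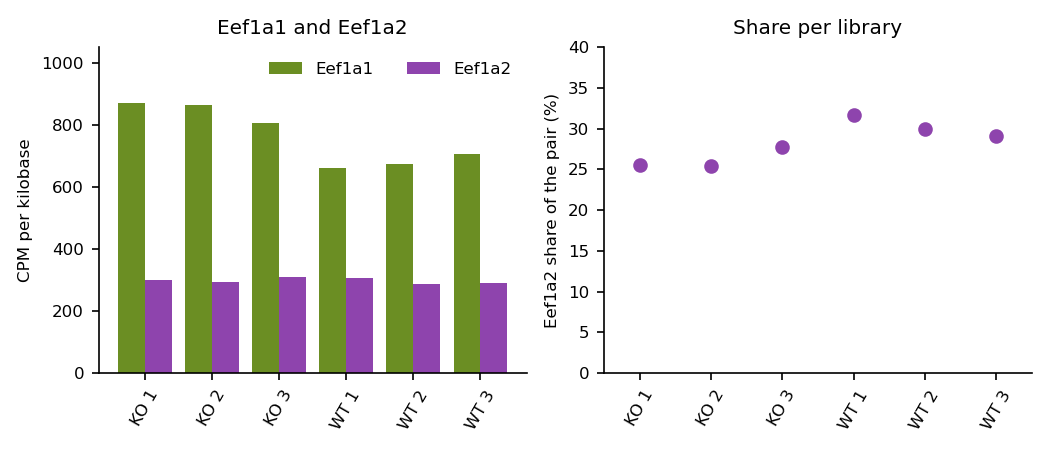
Left, level per kilobase of transcript (CPM per kilobase) of Eef1a1 (green) and Eef1a2 (purple) in each library, enhancer KO (KO 1 to KO 3) before WT. Right, the share of Eef1a2 in the sum of both, in percent: the 3 enhancer KO libraries lie between 25.4% and 27.8% and the 3 WT libraries between 29.1% and 31.6%.

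Eef2 encodes the translocase itself (chr10:81176631-81182498, plus strand). It had 1333, 1280 and 1274 CPM in enhancer KO and 1155, 1136 and 1182 CPM in WT, and was higher by 11.9% (0.16 ± 0.040, adjusted p = 0.00859). Eef2k, the calcium- and calmodulin-dependent kinase that stops eEF2, moved the other way, with 31.5, 28.7 and 34.2 CPM in enhancer KO and 37.2, 38.6 and 45.7 CPM in WT (-0.37 ± 0.088, adjusted p = 0.0104). Its spread was wide, and without enhancer KO replicate 1 its adjusted p was 0.0505. Eef2kmt, the methyltransferase of eEF2, was near 4 CPM in both groups (4.24 ± 0.534 CPM in enhancer KO and 4.07 ± 0.532 CPM in WT, SD, n = 3 each, adjusted p = 0.851).

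Some of these factors are made from TOP mRNAs, which begin with a C and a run of pyrimidines at the cap. Such mRNAs are translated as a group under mTORC1 and LARP1. A list of 9 such factors held Eef1a1, Eef1b2, Eef1d, Eef1g, Eef2, Eif3e, Eif3f, Eif3h and Eif4b. Of these 6 were higher and none was lower, with a median log2 fold change of 0.24. Of all genes tested 13.4% were called higher and 17.9% lower, and of those of at least 10 CPM 18.9% and 20.5%. The list was chosen with earlier results of these data known. The 3 listed factors that did not pass were Eef1d, Eif3e and Eif4b, whose values stand above. Of the 47 tested factors off the list, 14 were higher and 6 lower, with a median of 0.077. Among 5 TOP mRNAs that are not translation factors by name, 3 were higher and 1 was lower. Tpt1, translationally controlled tumor protein, showed 0.23 ± 0.045 (adjusted p = 0.0021), and Gnb2l1, the ribosomal scaffold RACK1, showed 0.17 ± 0.046 (adjusted p = 0.0124, and 0.0601 without enhancer KO replicate 2). The lower one was Hnrnpa1, a splicing factor with many processed pseudogenes, at 1.90 ± 0.200 CPM in enhancer KO and 5.53 ± 0.725 CPM in WT (SD, n = 3 each; -1.54 ± 0.16, adjusted p = 2.8e-05).

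The sequences at the annotated starts of some of the factors show whether such a tract lies where RefSeq places the start. Each line gives 60 bases of the coding strand, from 40 before the start to 20 from it onward, in GRCm38.p6 as RefSeq's promoter table has them. Capitals mark a C followed by at least 4 bases that are C or T, with its first C within 5 bases of the start.
Eef1a1, chr9:78481705-78481764, minus strand: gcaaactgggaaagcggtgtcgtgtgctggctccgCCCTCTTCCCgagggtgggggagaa
Eif3f, chr7:108934375-108934434, plus strand: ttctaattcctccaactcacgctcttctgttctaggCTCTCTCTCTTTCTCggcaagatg
Eif2s3x, chrX:94212632-94212691, minus strand: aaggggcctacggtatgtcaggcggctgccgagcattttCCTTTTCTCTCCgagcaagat
Eef1b2, chr1:63176791-63176850, plus strand: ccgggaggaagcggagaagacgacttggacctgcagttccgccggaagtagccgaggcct
Eef2, chr10:81176591-81176650, plus strand: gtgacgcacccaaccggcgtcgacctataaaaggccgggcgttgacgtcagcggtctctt
Eef1a2, chr2:181156996-181157055, minus strand: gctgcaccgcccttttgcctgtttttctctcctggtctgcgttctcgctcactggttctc

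Eef1a1 and Eif3f, both higher in enhancer KO, had tracts of 10 and 15 bases there, and Eif2s3x had one of 12 bases. The windows of Eef1b2, Eef2 and Eef1a2 held none with its first C within 5 bases of the start. Those of Eef2 and Eef1a2 held such runs farther from the start. Of the 59 factors, 45 had a promoter in the table, and 10 of them (22.2%) held the tract, against 21.2% of all 27025 genes with a promoter. The tract was in 4 of 15 factors called higher (26.7%), in 1 of 5 called lower (20%) and in 5 of 24 not called (20.8%). The lower one was Eif4g1, with a tract of 6 bases, whose window is not printed here. Among the 5 listed TOP factors that had a promoter, Eef1a1 and Eif3f were the 2 with the tract. Only the coding strand was searched, and a tract is a description of letters that says nothing of where transcription began in this tissue.

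The regulators that act on these factors were followed as lists, beside 13.4% of all genes tested called higher and 17.9% called lower. Of 6 genes for the eIF2alpha kinases and phosphatase subunits, 2 were higher and 1 was lower. Eif2ak4 (GCN2), the kinase that senses uncharged tRNA, averaged 22.2 ± 0.028 CPM in enhancer KO and 31.0 ± 0.795 CPM in WT (-0.48 ± 0.056, adjusted p = 6.9e-05). Eif2ak2 (PKR), which senses double-stranded RNA, was higher (0.46 ± 0.092, adjusted p = 0.00263), as was Ppp1r15b, the constitutive phosphatase subunit (0.22 ± 0.041, adjusted p = 0.00193). Of 10 target genes of the integrated stress response, 4 were higher and none was lower, with a median of 0.056. They were Psat1, an enzyme of serine synthesis (0.18, adjusted p = 0.00375), the transcription factor genes Atf5 (0.23, adjusted p = 0.0103) and Ddit3 (0.35, adjusted p = 0.0296), and Ddit4, an inhibitor of mTORC1 (0.19, adjusted p = 0.0151). Without enhancer KO replicate 2 the adjusted p of Atf5 was 0.0569, and without enhancer KO replicate 1 that of Ddit4 was 0.0567. Atf4, whose protein drives this response and is controlled mainly by translation, was at 112 ± 5.17 CPM in enhancer KO and 112 ± 6.73 CPM in WT (SD, n = 3 each).

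Of 15 genes of mTORC1 and MNK signalling to eIF4E, 4 were higher and 5 were lower, with a median of -0.11. Rps6kb2, which encodes an S6 kinase, fell to 10.7 ± 0.802 CPM in enhancer KO, against 21.8 ± 1.019 CPM in WT (SD, n = 3 each; -1.03 ± 0.078, adjusted p = 3.4e-06). Rps6, a ribosomal protein and the substrate that names those kinases, was higher (0.31 ± 0.047, adjusted p = 0.000457), and Tsc2, which restrains mTORC1, was lower (-0.19 ± 0.042, adjusted p = 0.00517). Tsc2 was not called with library size as the only scaling (-0.13, adjusted p = 0.239). Of 13 genes for poly(A) binding, termination and recycling, 3 were higher and 1 was lower. Paip2b, an inhibitor of the poly(A)-binding protein, showed 0.29 ± 0.047 (adjusted p = 0.000709) and Etf1, the stop codon release factor, 0.22 ± 0.044 (adjusted p = 0.00286). Hbs1l, which rescues stalled ribosomes, was lower (-0.19 ± 0.046, adjusted p = 0.00855), but not with library size as the only scaling (-0.13, adjusted p = 0.25). Of 20 other partners, 2 were higher and 4 lower, led by the mitochondrial elongation and recycling genes Guf1 (-0.71 ± 0.066, adjusted p = 1.5e-05) and Gfm2 (-0.39 ± 0.065, adjusted p = 0.000895). Dhx29, a helicase of scanning ribosomes, was also lower (-0.21 ± 0.055, adjusted p = 0.012). It was not called with library size as the only scaling (-0.15, adjusted p = 0.219), and it lost its call without enhancer KO replicate 1 (0.0534), enhancer KO replicate 2 (0.0517) or WT replicate 2 (0.0550).

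By the median, the lower factors had longer introns than the higher ones. The median intron length was 5808 bases over the 20 higher factors, 33340 bases over the 6 lower factors and 16358 bases over the 30 not called. Lengths are those of the main coding transcript in GENCODE mouse release M21. Over all genes tested the medians were 17775 bases for those called higher and 26717 bases for those called lower. Across the 56 factors the log2 fold change and the log10 intron length had a Pearson r of -0.14 and a Spearman rho of -0.40. Across 15689 genes of all kinds these were 0.049 and -0.068. Genes are not independent replicates here, since all values come from the same 6 libraries and share their depth and intronic reads. Exceptions went both ways: Eif3h, with 77671 bases of intron, was higher, and Eif4ebp3, with 1114 bases, was lower. Eif4g1 (13727 bases) and Eif2d (16906 bases), also lower, lay near the median of the factors not called. Smooth trends over spliced length, GC content and intron length were then fitted in each library and taken out. After that 24 factors were higher and 4 lower, with 18.6% of all genes higher and 14.4% lower. The median over all genes was 0.038. Across the 56 factors the Pearson r was then -0.087 and the rho -0.33. The 20 factors called higher before were all among the 24, and the others were Eif4ebp2, Eif2s1, Eif4e and Eif3b. Eif4g1 (-0.080, adjusted p = 0.186) and Eif5b (-0.074, adjusted p = 0.333) were then not called.

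**Figure D5:**
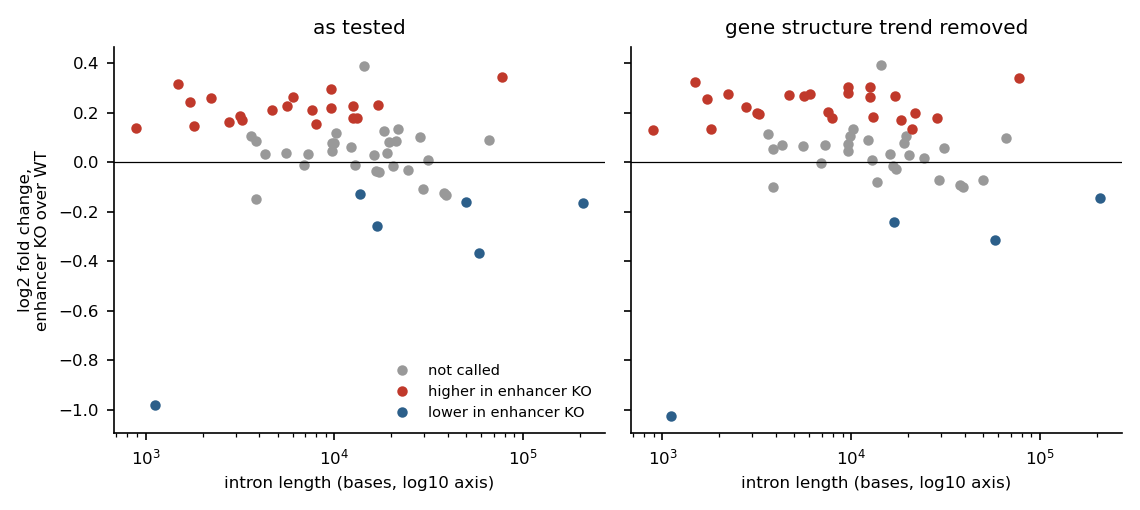
Log2 fold change of the 56 tested factors, enhancer KO over WT, against intron length in bases (log10 axis), as tested (left) and after the trends over gene structure were taken out (right). Red marks genes called higher in enhancer KO, blue those called lower and grey those not called; of the 6 lower genes on the left, Eif4ebp3 alone has an intron length near 1000 bases.

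Several factor genes have small RNA genes inside their span, and 3 of 10 such RNAs had enough reads to be tested. All bases of these 3 also lie in exons of some annotated transcript of the host, 69 for Snord2 and 178 for Snora81 in Eif4a2 and 127 for Snora28 in Eif5. Snord2, in Eif4a2, was at 0.361 ± 0.152 CPM in enhancer KO and 0.820 ± 0.177 CPM in WT (-1.17 ± 0.35, adjusted p = 0.024), while its host did not pass. Snora28, in Eif5, was at 1.21 ± 0.264 CPM in enhancer KO and 1.91 ± 0.119 CPM in WT (SD, n = 3 each; -0.65 ± 0.21, adjusted p = 0.0358), while its host was higher. Snora81, also in Eif4a2, showed -0.14 ± 0.21 (adjusted p = 0.639). Reads of the host RNA can fall on the same bases, and their part in these counts was not tested.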

How the data were processed

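Bulk RNA-seq libraries, 3 from enhancer KO and 3 from WT at postnatal day 18, were compared. Per the submitters' processing notes, the authors used Trimmomatic and STAR with mm10; the sources used here do not give versions, settings or annotation. Deposited values are raw read counts per gene. Column 4 of each table was used, since 1.62% to 1.88% of stranded reads lay on the other strand. The 4 rows naming no gene (36.6% ± 0.929 of reads in enhancer KO, 52.6% ± 8.04 in WT) were left out. No pair of libraries within a group agreed within sampling noise.

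Genes passing filterByExpr (15846) were tested with edgeR 4.0.16 in R 4.3.3 (TMM, robust quasi-likelihood test, two-sided, Benjamini-Hochberg over all genes, threshold 0.05). CPM uses TMM-scaled library sizes; ± after a log2 fold change is the SE. The same test gave every adjusted p unless another is named, and no gene's p was adjusted over a list alone. Of 24411 symbols, 23336 matched GENCODE mouse release M21 by symbol and 649 by an older symbol. Per-kilobase levels use the main coding transcript. Intervals on 0 reads allow 3 reads and cover counting error only. Genes described with values were, in each role, up to 4 called members with the smallest adjusted p, the most abundant, the close copies and those on the X chromosome, and up to 3 called genes in each other list; the rest were named after their values were seen. Alternatives were library size alone, RLE scaling, other filters, a replicate block, DESeq2 1.42.0, limma-voom 3.58.1, the unstranded column, an Xist covariate, trend removal with mgcv 1.9.3, a minimum fold of 1.2 and leaving out each library. The test was checked on simulated counts. Members, lists and tests were chosen with earlier results of these data known.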

Additional observations from a re-analysis of the deposited data

How the results depend on the processing

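Under every alternative run, no called factor changed sign. The count of higher factors was 0 against a minimum fold of 1.2 (0.524% of all genes). It was 13 to 20 when 1 library was left out (8.89% to 13.8% of all genes). Under the others it lay between 18 and 24 (11.5% to 18.6% of all genes). The count of lower factors was 1 against that minimum fold (5.73% of all genes), 2 with library size alone (10.7%), and 3 to 6 when 1 library was left out (13.7% to 16.9%). Library size alone moved the median of all genes to 0.063, and gave 20 higher and 2 lower factors (13.7% and 10.7% of all genes). The cause of these changes was not tested, except that a minimum fold asks for a larger change by construction. Of the 26 calls, 11 held under all 17 alternatives other than the minimum fold: Eef1g, Eef1a1, Eef1b2, Eef2, Eif3h, Eif3f, Eif3i, Eif4h, Eif5, Eif1ax and Eif4ebp3. Eif4g1 lost its call in 12 of them, Eif5b in 11, and Eif2b5 and Eif1 in 7 each.

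Same-numbered libraries did not deviate together (correlations of 0.053, -0.039 and -0.080), so the replicate numbers were not taken as pairs. With a replicate block 18 factors were higher and 4 lower (12.4% and 16.6% of all genes). With the block and the trend removed the counts were 21 and 4 (17.3% and 13.3% of all genes).

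Some factors not called changed sign. Eif2s3x was at 0.046 with library size alone, 0.013 with the block, 0.011 with limma-voom, 0.0068 with the unstranded column, 0.23 with the Xist covariate (called, adjusted p = 0.0127), 0.027 with the trend removed, 0.055 with trend and block, and between -0.16 and 0.22 when 1 library was left out (called without WT replicate 1, adjusted p = 0.0198). Eef1d was at 0.051 with library size alone, 8.9e-05 with DESeq2, 0.0052 with the unstranded column, 0.0072 with the trend removed, 0.0067 with trend and block, and between -0.022 and 0.013 when 1 library was left out. Eif3e was at -0.0053 with the Xist covariate and -0.036 to 0.075 over the alternatives, Eif2s2 at -0.012 with the Xist covariate and between -0.010 and 0.10 when 1 library was left out, and Eif3c at 0.031 with library size alone and between -0.062 and 0.010 when 1 library was left out. The Eif1b share differed by -0.43 to 0.69 percentage points when 1 library was left out.

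Depth limited few values here: 53 of 56 tested factors averaged at least 10 CPM. Eif4ebp1, Eif4ebp3 and the small RNAs rest on few reads. Group and the share of reads outside exons differ together and cannot be told apart with 3 libraries against 3. With the Xist covariate 18 factors were higher and 5 lower (13.9% and 16.9% of all genes).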
